A study of Sus scrofa with 36 samples.

Results

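Undifferentiated pig induced pluripotent stem cells (PiPSC) of clone 8 were compared with those of clones 1, 2 and 3. The comparison takes 14 of the 36 bulk RNA-seq libraries of the series, chosen by their labels. They are the 3 day 0 libraries of clone 8 and 11 libraries of the other clones, 3 of clone 1 (replicates 2 to 4), 4 of clone 2 and 4 of clone 3. Clone 8 is labelled as undifferentiated PiPSC8 with the MEF feeder layer removed (mouse embryonic fibroblasts, on which stem cells are often grown). Clone 1 is labelled PiPS-EP1 minusPD c4 p11, clone 2 PiPS-EP5 minusPD minusA83 c12 p10 and clone 3 PiPS-EP5 minusPD minusA83 c18 p15. The sources used here do not spell out minusPD and minusA83, nor give the feeder status of clones 1 to 3. Each line is 1 clone, and nothing says that replicates came from separate cultures, so p-values measure the spread between these libraries, which may be technical. The 4 fibroblast libraries and the 18 libraries of differentiated clone 8 serve below only as points of reference.

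Induced pluripotent stem cells are body cells returned to an embryo-like state by reprogramming factors. Their identity rests on a small circuit of transcription factors, POU5F1 (OCT4), SOX2 and NANOG, which maintain each other and the genes of self-renewal. Around it lie signals from the medium: Nodal and activin act through SMAD2 and SMAD3, FGF through ERK, WNT through beta-catenin and BMP through SMAD1 and SMAD5. Cells like the early blastocyst are called naive, and those like the later epiblast, as most pig lines are held to be, primed. Both grow as tight epithelial colonies held together by E-cadherin.

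Clone 8 was counted at 8152284 to 8604970 assigned reads per library and clones 1 to 3 at 24314241 to 69879325, so low genes are less precise in clone 8. The sets also differ in the gene lengths that the deposited counts and TPM imply. For the shortest against the longest decile of genes the length relative to the first clone 8 library was 1 to 1.0004 in all 21 clone 8 libraries, 0.984 to 0.986 in clones 1 to 3, 1.0001 to 1.0004 in fibroblast libraries 3 and 4 and 0.854 in fibroblast libraries 1 and 2. No library outside clones 1 to 3 shares their value, so clone, library set, depth and feeder removal cannot be told apart. TPM (a level per gene length that sums to the same total in each library) and counts scaled by edgeR's TMM method also set a different zero: the median gene was 0.28 higher in clone 8 on log2(TPM + 1) and 0.053 higher on scaled counts. Fold changes below are on scaled counts, clone 8 minus the mean of the 3 clones with equal weight per clone, and levels are TPM. The markers of the labelled cell type were all present: POU5F1, NANOG, SOX2, LIN28A, SALL4 and DPPA4 summed to 1999.9 to 2189 TPM in clone 8, 1972 to 2532 TPM in clones 1 to 3 and 0.59 to 4.41 TPM in fibroblasts.

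Most genes at a substantial level had similar levels in clone 8 and the other clones. Of 6775 genes at 10 TPM or more in both groups, 5538 (81.7%) had a 95% interval of the log2 fold change within -1 and 1, here called a shared level. Among them were TMSB4X, an actin-binding peptide, at 17345 against 19196 TPM, EEF1A1, a translation factor, at 8623 against 8092 TPM, and NPM1, a nucleolar protein, at 8093 against 7737 TPM, 3 genes chosen after their values were seen. A shared level does not mean no difference: with edgeR's quasi-likelihood test 5461 of 14490 tested genes (37.7%) passed an adjusted p of 0.05, 2646 higher (18.3%) and 2815 lower (19.4%). The difference was 2-fold or more for 1767 of them. On the TPM scale, by limma on log2(TPM + 1), the split was 5860 higher (40.4%) and 1456 lower (10%). Against clone 1 alone, 20.5% were higher and 20.4% lower, against clone 2 9.45% and 14.7%, and against clone 3 12.8% and 17.4%; the 3 contrasts share the clone 8 libraries. The TPM of all 3 clone 8 libraries lay outside the range of the other 11 for 28.5% of genes. These tests treat libraries as the units. With counts summed per clone, so that the 3 clones are the units against 1, 8 of 15715 genes passed and 2280 (14.5%) had an unadjusted p under 0.05, so all calls below describe these libraries and not clones in general. Counts of list members called by edgeR are to be read against the 18.3% and 19.4% of all genes. Counts by limma on log2(TPM + 1) are to be read against the 40.4% and 10%, and counts of shared levels against the 81.7%.

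**Figure D1:**
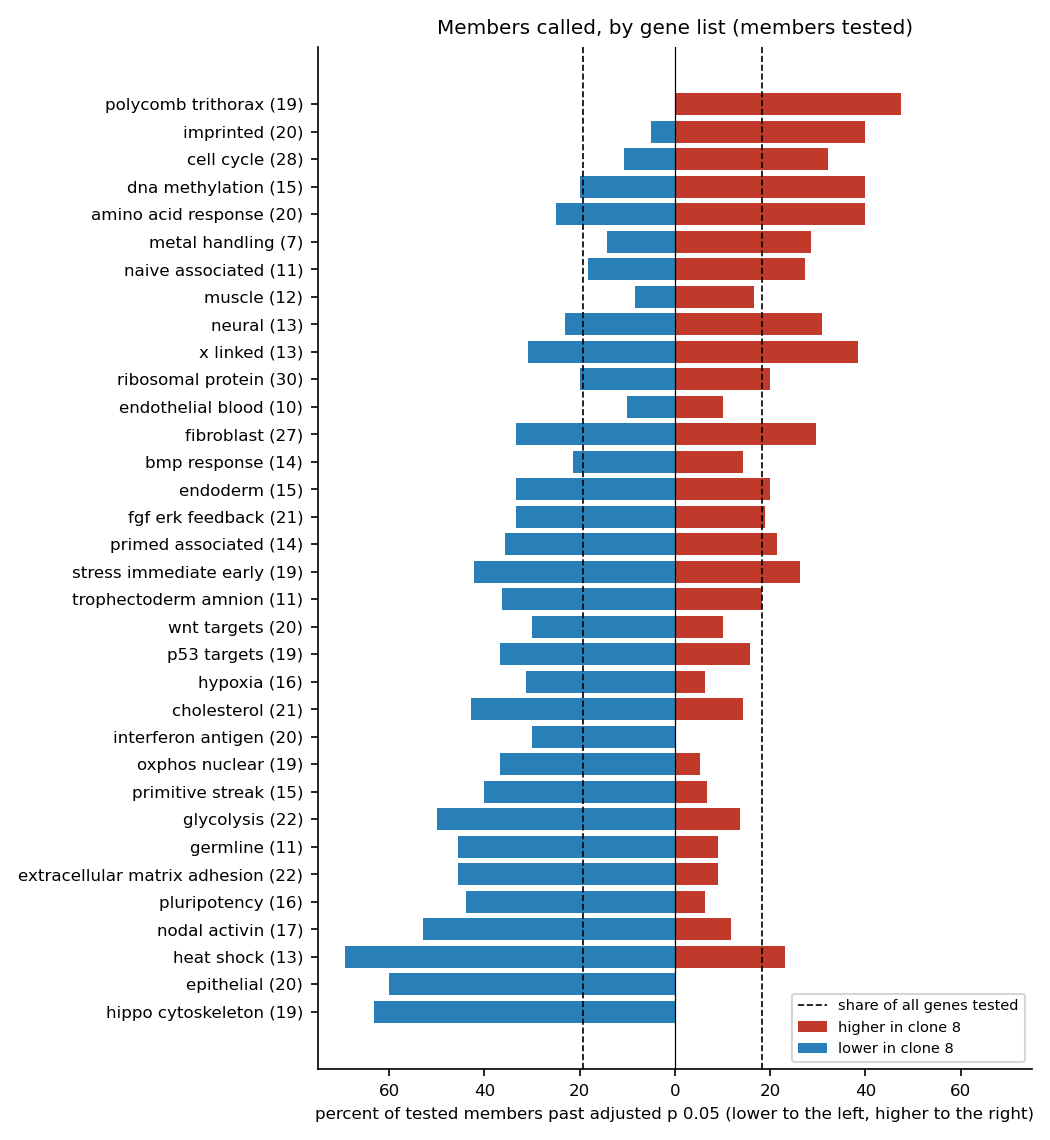
Share of tested members of each gene list past edgeR's adjusted p of 0.05, higher in clone 8 to the right and lower to the left, in percent; dashed lines mark the 18.3% and 19.4% of all genes tested. The epithelial and the cytoskeleton lists have no member called higher (by limma on log2(TPM + 1) the cytoskeleton list has 5), and the polycomb and trithorax list none called lower.

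POU5F1 and SOX2, of the core pluripotency circuit, had shared levels in clone 8 and the other clones, while the interval of NANOG (-1.17 to -0.55) reached past a 2-fold lower level. Of the 16 tested members, 1 was higher and 7 lower in clone 8 (median log2 fold change -0.21, and 5 higher and 4 lower by limma on log2(TPM + 1); on leaving out 1 library, 0 higher without clone 8 replicate 1 or 2, 2 higher without clone 1 replicate 2 or clone 3 replicate 1), and 8 of the 10 members at 10 TPM or more in both groups had a shared level. POU5F1, the master factor of the state, was at 689, 797 and 666 TPM in clone 8 and at 746 to 1173 TPM (median 806) in the other clones. Its clone 8 libraries lay within or across the range of the others. For POU5F1 the log2 fold change was -0.64 ± 0.11 (SE), adjusted p = 0.000259. SOX2, its DNA-binding partner, was at 175, 171 and 176 TPM against 83.1 to 138 TPM (median 118). All 3 clone 8 libraries were above all 11 others in TPM. For SOX2 the log2 fold change was 0.31 ± 0.14 (SE), adjusted p = 0.085, and by limma on log2(TPM + 1) 0.65, adjusted p = 0.000697. NANOG, the third factor, was at 69.3, 68.8 and 68.4 TPM against 63.6 to 129.9 TPM (median 103), so clone 8 sat at the low end without leaving the range. For NANOG the log2 fold change was -0.86 ± 0.15 (SE), adjusted p = 0.000197. LIN28A, an RNA-binding protein that blocks let-7 maturation, averaged 1068 ± 60.1 TPM in clone 8 (SD, n = 3) and 1170.0 ± 268 TPM in clones 1 to 3 (SD of 3 clone means) (-0.42 ± 0.14, adjusted p = 0.0267, with adjusted p up to 0.139 without single libraries (clone 8 replicate 1, 2 or 3), but by limma on log2(TPM + 1) adjusted p = 0.677).

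DNMT3B, the de novo DNA methyltransferase of the epiblast, averaged 1601 ± 109 TPM in clone 8 (SD, n = 3) and 1132 ± 74.4 TPM in clone 1 (SD, n = 3), 1304 ± 99.98 TPM in clone 2 (SD, n = 4) and 2349 ± 244 TPM in clone 3 (SD, n = 4). Clone 8 was above clones 1 and 2 and below clone 3, and the fitted difference was small (log2 fold change -0.25 ± 0.071 (SE), adjusted p = 0.0101, with adjusted p = 0.0631 without clone 8 replicate 2 and adjusted p = 0.0626 without clone 8 replicate 3, with the opposite sign (0.082) on log2(TPM + 1)), turning to 0.10 without clone 3. DNMT3B lies on chromosome 17, whose genes as a whole were higher in clone 3 (below). TDGF1, the Nodal co-receptor also called Cripto, was the list's lowest called member at 12.5, 8.62 and 8.87 TPM against 7.19 to 24.99 TPM (median 21.4), and its libraries overlapped those of clone 1 alone. For TDGF1 the log2 fold change was -1.09 ± 0.20 (SE), adjusted p = 0.000343. SALL4, a zinc finger factor of the circuit, was at 66.4, 50.04 and 51.8 TPM against 61.95 to 104 TPM (median 77.03), with clone 8 at the low end. For SALL4 the log2 fold change was -0.87 ± 0.14 (SE), adjusted p = 0.000112. FOXD3, a forkhead repressor, was the only member called higher, at 15.4, 17.3 and 11.04 TPM against 4.72 to 11.7 TPM (median 7.2), with overlap at the low end. For FOXD3 the log2 fold change was 0.68 ± 0.22 (SE), adjusted p = 0.02, with adjusted p = 0.172 without clone 8 replicate 2 and adjusted p = 0.0872 without clone 8 replicate 1.

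**Figure D2:**
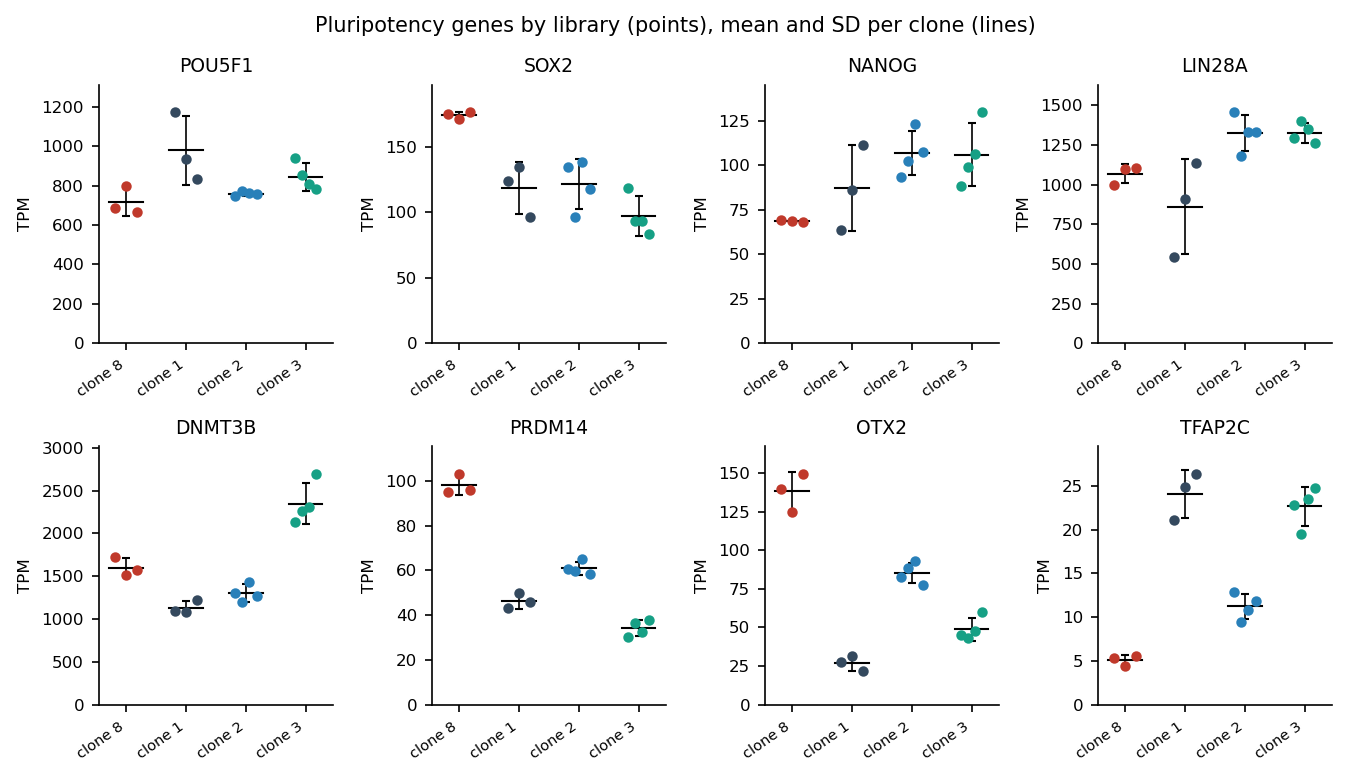
TPM of 8 pluripotency genes in each library (points), with mean and SD per clone (black lines), for clone 8 (3 libraries), clone 1 (3), clone 2 (4) and clone 3 (4). POU5F1, LIN28A and DNMT3B overlap between clone 8 and the others, PRDM14 and OTX2 are higher in every clone 8 library and TFAP2C is lower.

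Genes linked to the naive and to the primed state were each called in both directions. Among naive-associated genes, of 11 tested members, 3 were higher and 2 lower in clone 8 (median log2 fold change -0.19, and 3 higher and 2 lower by limma on log2(TPM + 1)). PRDM14, a repressor of differentiation genes, was at 94.95, 103 and 95.9 TPM against 30.1 to 65.03 TPM (median 46.01), clear of every other library. For PRDM14 the log2 fold change was 0.76 ± 0.088 (SE), adjusted p = 2.67e-06. KLF4, a reprogramming factor, was at 11.7, 8.72 and 13.1 TPM against 0.95 to 5.38 TPM (median 3.51), and KLF5, its relative, at 21.1, 17.8 and 23.5 TPM against 3.84 to 16.4 TPM (median 9.39). Both were above all 11 others, with log2 fold changes of 1.38 ± 0.32, adjusted p = 0.00258 and 0.83 ± 0.26, adjusted p = 0.0174, with adjusted p = 0.101 without clone 8 replicate 3 and adjusted p = 0.0591 without clone 8 replicate 1. TFAP2C, a factor of naive cells, germ cell precursors and trophectoderm, went the other way at 5.32, 4.47 and 5.61 TPM against 9.44 to 26.4 TPM (median 21.1). No clone 8 library reached the lowest of the others. For TFAP2C the log2 fold change was -2.18 ± 0.15 (SE), adjusted p = 9.12e-09. SOCS3, the feedback inhibitor of STAT3 signalling, was also lower at 2.353 against 4.68 TPM (-1.28 ± 0.30, adjusted p = 0.00264).

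Of the primed-associated list's 14 tested members, 3 were higher and 5 lower in clone 8 (median log2 fold change -0.037, and 5 higher and 1 lower by limma on log2(TPM + 1); on leaving out 1 library, 5 higher without clone 1 replicate 4, 2 lower without clone 8 replicate 2, 3 lower without clone 8 replicate 1 or 3). OTX2, the homeobox factor of the primed epiblast and anterior neural plate, was at 140.0, 125 and 149.6 TPM in clone 8. The other clones spread from 21.6 to 92.9 TPM (median 47.6), with means of 26.9 ± 5.05 TPM in clone 1 (SD, n = 3), 85.4 ± 6.59 TPM in clone 2 (SD, n = 4) and 48.9 ± 7.48 TPM in clone 3 (SD, n = 4). Clone 8 was above all 11 others (log2 fold change 1.18 ± 0.10 (SE), adjusted p = 1.29e-07), and its difference from clone 2 was the smallest, at 0.45 ± 0.13 (adjusted p = 0.0161). ZIC5, a zinc finger factor of early ectoderm, was at 20.9, 16.3 and 20.5 TPM against 2.98 to 8.71 TPM (median 4.75) and SFRP2, a secreted WNT modulator, at 22.7, 20.03 and 22.6 TPM against 3.28 to 13.8 TPM (median 6.3). These were likewise above all other libraries (1.58 ± 0.21, adjusted p = 1.55e-05 for ZIC5 and 1.31 ± 0.23, adjusted p = 0.000236 for SFRP2). SOX11 and SALL2, a SOX and a zinc finger factor, were called lower at 29.4 against 43.03 TPM and 163 against 194 TPM, with overlapping libraries. By limma on log2(TPM + 1) SOX11 passed (adjusted p = 0.0127) and SALL2 did not (adjusted p = 0.0627). The edgeR values were -0.86 ± 0.15, adjusted p = 0.000192, and -0.57 ± 0.10, adjusted p = 0.000238.

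Among the Nodal and activin, WNT, FGF and ERK, and BMP lists, Nodal and activin genes were most often called lower in clone 8. Of 17 tested members, 2 were higher and 9 lower in clone 8 (median log2 fold change -0.76, and 2 higher and 7 lower by limma on log2(TPM + 1); on leaving out 1 library, 1 higher without clone 8 replicate 1, 2 or 3, clone 2 replicate 1 or 4 or clone 3 replicate 3). NODAL itself, the ligand, was at 0.3, 0.3 and 0 TPM against 0.42 to 2.22 TPM (median 1.24). It was low everywhere, and in clone 8 it rested on 12 reads. For NODAL the log2 fold change was -2.93 ± 0.70 (SE), adjusted p = 0.00308. INHBB, a subunit of activin B, had no read in clone 8 and 0.08 to 1.73 TPM (median 0.21) elsewhere, at least 4.09-fold lower taking a floor of 3 reads over the 3 libraries, although its call was unsteady (edgeR adjusted p = 0.0384, with adjusted p up to 0.104 without single libraries (clone 8 replicate 1, 2 or 3, clone 1 replicate 3 or clone 3 replicate 2, 3 or 4), but by limma on log2(TPM + 1) adjusted p = 0.11). LEFTY2, a feedback inhibitor that Nodal induces, was at 15.5, 6.32 and 12.04 TPM against 15.4 to 222 TPM (median 26.6). Clones differed among themselves, with 176 ± 49.3 TPM in clone 1 (SD, n = 3), 23.4 ± 5.89 TPM in clone 2 (SD, n = 4) and 27.6 ± 15.2 TPM in clone 3 (SD, n = 4), and clone 8 was the lowest (log2 fold change -2.44 ± 0.37 (SE), adjusted p = 4.52e-05), touching the lowest library of the others. CER1, a secreted antagonist of Nodal, BMP and WNT, was at 49.9, 48.1 and 48.2 TPM against 57.1 to 186 TPM (median 147), below every other library. For CER1 the log2 fold change was -1.61 ± 0.12 (SE), adjusted p = 1.58e-08. In the other direction ACVR2B, a type II activin receptor, was at 48.8, 43.3 and 49.2 TPM against 16.03 to 30.2 TPM (median 24.8), above all 11. For ACVR2B the log2 fold change was 0.58 ± 0.14 (SE), adjusted p = 0.00289. PCSK6, a convertase that processes Nodal, was called higher at 3.37 against 1.52 TPM (0.87 ± 0.32, adjusted p = 0.0416, with adjusted p up to 0.292 without single libraries (clone 8 replicate 1, 2 or 3, clone 2 replicate 1 or 4 or clone 3 replicate 3)). FOXH1, the SMAD partner at Nodal targets, had a shared level at 45.7 against 41.1 TPM (interval -0.43 to 0.078).

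WNT target genes were more often lower on scaled counts. On log2(TPM + 1) more were higher than lower, but so were all genes (40.4% higher and 10% lower). The list's median difference on log2(TPM + 1) was -0.024, against 0.28 for all genes. Of 20 tested members, 2 were higher and 6 lower in clone 8 (median log2 fold change -0.33, and 6 higher and 4 lower by limma on log2(TPM + 1); on leaving out 1 library, 4 higher without clone 1 replicate 3 or 4). CCND1, cyclin D1, was at 49.96, 35.7 and 37.1 TPM against 86.7 to 195 TPM (median 116). Every clone 8 library was below every other. For CCND1 the log2 fold change was -2.01 ± 0.12 (SE), adjusted p = 1.04e-09. WNT3, the ligand that starts the primitive streak, and LGR5, an R-spondin receptor, were low in all clones, at 0.78 against 2.46 TPM and 0.73 against 2.73 TPM (-1.89 ± 0.42, adjusted p = 0.00171 and -1.82 ± 0.41, adjusted p = 0.00185), with overlapping libraries. The secreted modulators SFRP1 and SFRP2 were the 2 members called higher, SFRP1 at 149, 131 and 141 TPM against 43.7 to 135 TPM (median 97.3), across the top of that range. For SFRP1 the log2 fold change was 0.33 ± 0.088 (SE), adjusted p = 0.00642. FZD7, the main Frizzled receptor of pluripotent cells, was at 33.05 against 35.2 TPM (interval -0.63 to -0.16).

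Feedback genes of the FGF and ERK pathway were called in both directions, with more lower on scaled counts. On log2(TPM + 1) more were higher, as among all genes (40.4% higher and 10% lower). Of 21 tested members, 4 were higher and 7 lower in clone 8 (median log2 fold change -0.14, and 9 higher and 3 lower by limma on log2(TPM + 1); on leaving out 1 library, 2 higher without clone 8 replicate 1 or 3, 4 lower without clone 8 replicate 2 or 3). PHLDA1 was at 16.2, 16.6 and 16.4 TPM against 24.2 to 37.1 TPM (median 27.4), below all others (log2 fold change -1.21 ± 0.085 (SE), adjusted p = 8.64e-09), and the ligand FGF2 was at 20.7, 24.1 and 22.6 TPM against 21.97 to 46.6 TPM (median 30.3). For FGF2 the log2 fold change was -0.88 ± 0.15 (SE), adjusted p = 0.000132. The phosphatases DUSP6 and DUSP4, direct brakes on ERK, had shared levels at 195 against 163 TPM (interval -0.34 to 0.27) and 91 against 87.1 TPM (interval -0.46 to -0.077). EGR1, an immediate early factor, was called higher at 41.4, 35.2 and 36.8 TPM, but the other clones split around it, with 4.92 ± 1.67 TPM in clone 1 (SD, n = 3), 65.3 ± 6.93 TPM in clone 2 (SD, n = 4) and 4.11 ± 0.867 TPM in clone 3 (SD, n = 4). Clone 8 was thus above clones 1 and 3 and below clone 2 (log2 fold change 1.44 ± 0.15 (SE), adjusted p = 6e-07), and the log2 fold change against clone 2 alone was -1.01 ± 0.18 (adjusted p = 0.0005).

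Among BMP response genes, of 14 tested members, 2 were higher and 3 lower in clone 8 (median log2 fold change 0.018, and 4 higher and 2 lower by limma on log2(TPM + 1)). The ID genes, inhibitors of basic helix-loop-helix factors that BMP induces, were not called in the same direction. ID1 was at 98.4, 77.7 and 75.4 TPM against 15.4 to 60.5 TPM (median 34.4), above all others (log2 fold change 1.03 ± 0.17 (SE), adjusted p = 9.85e-05), as was BAMBI, a decoy BMP receptor, at 24.02 against 9.06 TPM (1.09 ± 0.20, adjusted p = 0.00036). ID3 was at 462, 453 and 476 TPM against 302 to 1312 TPM (median 833), with means of 1147 ± 272 TPM in clone 1 (SD, n = 3), 865 ± 123 TPM in clone 2 (SD, n = 4) and 389 ± 134 TPM in clone 3 (SD, n = 4). For ID3 the log2 fold change was -0.98 ± 0.19 (SE), adjusted p = 0.000455. Clone 8 was below clones 1 and 2 and within the range of clone 3.

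**Figure D3:**
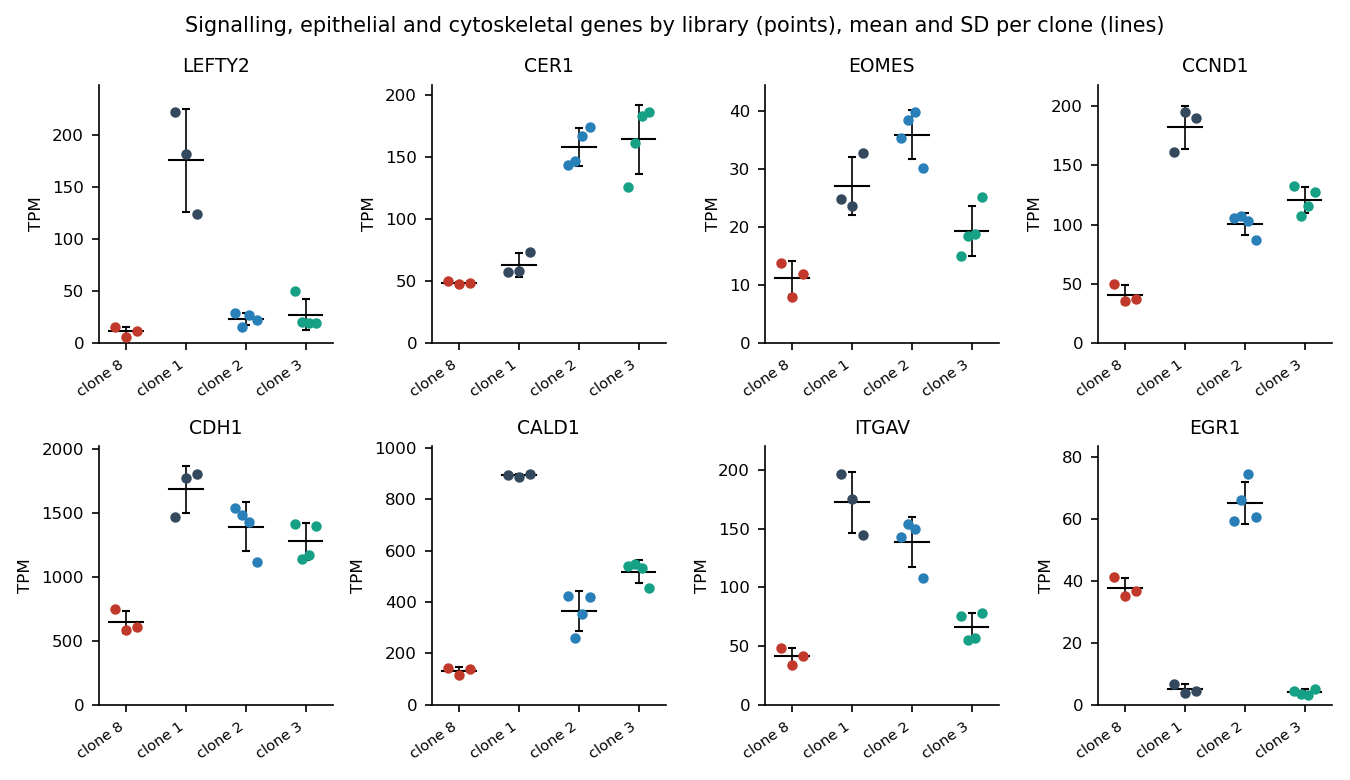
TPM of 8 genes of signalling, epithelium and cytoskeleton in each library (points), with mean and SD per clone (black lines). CER1, EOMES, CCND1, CDH1, CALD1 and ITGAV are lower in all 3 clone 8 libraries than in all 11 others, while EGR1 is higher in clone 2 than in clone 8 and lower in clones 1 and 3.

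Genes of the primitive streak, the gateway to mesoderm and endoderm, were called mostly in the lower direction in clone 8. Of 15 tested members, 1 was higher and 6 lower in clone 8 (median log2 fold change -0.86, and 2 higher and 6 lower by limma on log2(TPM + 1); on leaving out 1 library, 0 higher without clone 8 replicate 1, 2 higher without clone 3 replicate 1, 4 higher without clone 1 replicate 4). EOMES, a T-box factor of streak and endoderm, was at 13.9, 8.03 and 11.9 TPM against 14.9 to 39.8 TPM (median 25.1), below every other library. For EOMES the log2 fold change was -1.57 ± 0.17 (SE), adjusted p = 1.07e-06. T (brachyury) was at 12.1, 8.29 and 10.6 TPM against 4.22 to 25.1 TPM (median 15.6). Its clone 8 libraries fell inside that range. For T the log2 fold change was -0.86 ± 0.24 (SE), adjusted p = 0.00958, with adjusted p = 0.0696 without clone 8 replicate 2, but by limma on log2(TPM + 1) adjusted p = 0.111. LHX1, a homeobox factor of the anterior streak, was the exception, at 13.2, 6.87 and 9.45 TPM against 2.82 to 8.77 TPM (median 4.67). For LHX1 the log2 fold change was 0.69 ± 0.19 (SE), adjusted p = 0.00693, with adjusted p = 0.138 without clone 8 replicate 1. The sum of T, MIXL1, MESP1 and TBX6 was 8.62 to 14.5 TPM in clone 8, 6.57 to 27.6 TPM in clones 1 to 3, with MIXL1 and MESP1 below 1 TPM in every clone 8 library. In bulk libraries a smaller share of differentiating cells and less RNA per cell cannot be told apart, here and in the lists that follow.

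The endoderm list held genes called in both directions by wide margins. Of 15 tested members, 3 were higher and 5 lower in clone 8 (median log2 fold change 0.07, and 4 higher and 4 lower by limma on log2(TPM + 1); on leaving out 1 library, 5 higher without clone 1 replicate 4). SOX17 and FOXA2, early endoderm factors, were at 27.9, 12.8 and 23.6 TPM against 25.6 to 96.8 TPM (median 40.5) and at 10.7, 6.51 and 6.36 TPM against 6.62 to 31.2 TPM (median 22.3). Each overlapped the other clones and was called lower (-1.498 ± 0.20, adjusted p = 1.69e-05 for SOX17 and -1.502 ± 0.23, adjusted p = 4.64e-05 for FOXA2). AFP, the fetal albumin, had no read in clone 8 and 0.56 to 1.28 TPM (median 0.79) elsewhere, at least 8.98-fold lower with the 3-read floor. FOXA1, a relative of FOXA2, was at 5.72, 5.08 and 6.39 TPM against 0.46 to 4.66 TPM (median 0.69), and CXCR4, a chemokine receptor of early endoderm, at 56.02, 59.6 and 63.9 TPM against 3.92 to 32.3 TPM (median 9.44). Both lay above all 11 other libraries (2.01 ± 0.19, adjusted p = 3.38e-07 and 1.85 ± 0.24, adjusted p = 1.01e-05), and for both clone 2 came closest, with means of 3.71 and 27.8 TPM. APOA1, the main protein of high-density lipoprotein, was at 1233, 977 and 1205 TPM against 159 to 774 TPM (median 229). For APOA1 the log2 fold change was 1.499 ± 0.10 (SE), adjusted p = 4.34e-09. APOA1 was named after its values were seen, because it carries the sum of the endoderm markers SOX17, FOXA2, GATA6, HNF4A, APOA1 and TTR, which was 998 to 1277 TPM in clone 8, 209 to 875 TPM in clones 1 to 3, with TTR at 0 in every clone 8 library. APOE, its relative in lipid transport, had a shared level at 1093 against 1179 TPM (interval -0.66 to -0.17).

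Neural genes had the highest median log2 fold change of the 34 lists on scaled counts, on low levels. On log2(TPM + 1) their median difference was 0.29, against 0.28 for all genes. Of 13 tested members, 4 were higher and 3 lower in clone 8 (median log2 fold change 1.25, and 7 higher and 3 lower by limma on log2(TPM + 1); on leaving out 1 library, 2 higher without clone 8 replicate 1). SOX1, the first marker of neural plate, was at 1.35, 0.82 and 0.55 TPM and had no read in any of the 11 other libraries, at least 180.0-fold higher with a floor of 3 reads over those 11. HES5, a Notch effector, was at 3.78, 3.61 and 2.64 TPM against 0 to 0.73 TPM (median 0.21) (log2 fold change 3.46 ± 1.07 (SE), adjusted p = 0.0166, with adjusted p = 0.065 without clone 8 replicate 1 and adjusted p = 0.0644 without clone 8 replicate 2), and MAP2, a neuronal microtubule protein, at 19.4, 18.9 and 17.4 TPM against 1.51 to 5.38 TPM (median 3.64). For MAP2 the log2 fold change was 2.25 ± 0.15 (SE), adjusted p = 3.96e-09. All 3 genes separated clone 8 from the rest. FABP7, a fatty acid carrier of radial glia, was the reverse at 30.6, 29.9 and 22.6 TPM against 82.6 to 437 TPM (median 247). Its lowest other library was several-fold above clone 8 (log2 fold change -3.26 ± 0.15 (SE), adjusted p = 1.95e-10), and SOX3, a SOX2 relative, was lower too at 0.823 against 2.79 TPM (-2.08 ± 0.45, adjusted p = 0.00131), with overlap. The marker sum of PAX6, SOX1, HES5, DCX and STMN2 was 15.8 to 20.1 TPM in clone 8, 1.76 to 9.91 TPM in clones 1 to 3 and 185 to 297 TPM in fibroblasts, with PAX6 and DCX below 1 TPM in every clone 8 library. Most of the clone 8 sum was thus STMN2, and the sum was higher in fibroblasts than in clone 8. The part of neural cells in these values was not tested.

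The defining markers of other fates had low sums in all clones. Of the trophectoderm and amnion list's 11 tested members, 2 were higher and 4 lower in clone 8 (median log2 fold change -0.36, and 2 higher and 2 lower by limma on log2(TPM + 1); on leaving out 1 library, 0 higher without clone 8 replicate 1 or 3, 1 higher without clone 8 replicate 2, clone 1 replicate 3, clone 2 replicate 1, 3 or 4 or clone 3 replicate 1, 2 or 4, 1 lower without clone 8 replicate 3, 2 lower without clone 8 replicate 2, clone 2 replicate 1, 2, 3 or 4 or clone 3 replicate 2 or 3). Lower members were TFAP2C, given above, TP63, a p53 relative of epithelia, at 0.0633 against 0.317 TPM (-2.56 ± 0.91, adjusted p = 0.0337, with adjusted p up to 0.148 without single libraries (clone 8 replicate 2 or 3 or clone 2 replicate 4)). ELF5, a trophectoderm factor, was also lower at 2.04 against 4.32 TPM (-1.31 ± 0.50, adjusted p = 0.0476, with adjusted p up to 0.202 without single libraries (clone 8 replicate 1 or 3, clone 1 replicate 2, clone 2 replicate 1, 2, 3 or 4 or clone 3 replicate 1, 2 or 3), but by limma on log2(TPM + 1) adjusted p = 0.0539). GATA3, a trophectoderm factor called higher, was at 6.08, 2.48 and 4.18 TPM against 0.13 to 2.22 TPM (median 1.36). For GATA3 the log2 fold change was 1.30 ± 0.49 (SE), adjusted p = 0.0449, with adjusted p up to 0.29 without single libraries (clone 8 replicate 1 or 3, clone 1 replicate 3, clone 2 replicate 3 or 4 or clone 3 replicate 1, 2 or 4). All 3 libraries were above the other 11. The sum of CDX2, GATA3, TFAP2A, TFAP2B and HAND1 was 3.43 to 7 TPM in clone 8, 1.16 to 3.27 TPM in clones 1 to 3, and the 4 markers other than GATA3 were below 1 TPM in every clone 8 library. For the endothelial and blood list, of 10 tested members, 1 was higher and 1 lower in clone 8 (median log2 fold change 0.19, and 2 higher and 1 lower by limma on log2(TPM + 1); on leaving out 1 library, 2 higher without clone 1 replicate 3 or clone 3 replicate 1, 2 lower without clone 1 replicate 3). For the muscle list, of 12 tested members, 2 were higher and 1 lower in clone 8 (median log2 fold change -0.19, and 4 higher and 1 lower by limma on log2(TPM + 1); on leaving out 1 library, 1 higher without clone 8 replicate 1, 2 or 3, 4 higher without clone 1 replicate 3, 2 lower without clone 1 replicate 3 or 4). MYH7, a slow myosin, was at 2.28, 2.41 and 5.37 TPM against 0.1 to 1.34 TPM (median 0.4) (log2 fold change 2.58 ± 0.39 (SE), adjusted p = 4.38e-05), above the others at levels of a few TPM. The marker sums were 3.2 to 5.53 TPM in clone 8, 1.7 to 4.97 TPM in clones 1 to 3 for endothelium or blood and 5.76 to 10.7 TPM in clone 8, 3.08 to 6.07 TPM in clones 1 to 3 for muscle.

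No epithelial gene was called higher in clone 8 and most of those tested were lower. Of 20 tested members, 0 were higher and 12 lower in clone 8 (median log2 fold change -0.42, and 0 higher and 8 lower by limma on log2(TPM + 1)). CDH1, E-cadherin, was at 746, 583 and 608 TPM in clone 8 and 1115 to 1807 TPM (median 1429) elsewhere. The highest clone 8 library was below the lowest of the other 11. For CDH1 the log2 fold change was -1.503 ± 0.11 (SE), adjusted p = 1.23e-08. The tight-junction claudin CLDN4, at 329, 352 and 306 TPM against 386 to 735 TPM (median 460.1), and the polarity protein CRB3, at 31.4, 26.2 and 31.1 TPM against 48.01 to 75.9 TPM (median 59.8), showed the same order (-0.96 ± 0.10, adjusted p = 7.99e-07 and -1.36 ± 0.14, adjusted p = 9.66e-07). EPCAM, an epithelial adhesion molecule, was at 652, 615 and 667 TPM against 666 to 867 TPM (median 819) and touched the range. For EPCAM the log2 fold change was -0.65 ± 0.094 (SE), adjusted p = 2.94e-05. The simple-epithelium keratins were among the high genes of both groups: KRT8 at 2923 against 2981 TPM (interval -0.52 to -0.19) and KRT18 at 2078 against 2754 TPM (interval -0.89 to -0.57), both shared levels. A shared level was found for 15 of the 18 members at 10 TPM or more in both groups, so most of these differences were under 2-fold.

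Genes of actin, contractility and YAP/TAZ (Hippo pathway) output had a lower median still, and none was called higher on scaled counts. Of 19 tested members, 0 were higher and 12 lower in clone 8 (median log2 fold change -0.72, and 5 higher and 11 lower by limma on log2(TPM + 1)). ANKRD1, a classic YAP target, was at 1.56, 2.93 and 2.27 TPM against 6.36 to 36 TPM (median 9.39). For ANKRD1 the log2 fold change was -2.87 ± 0.26 (SE), adjusted p = 1.48e-07. CALD1, caldesmon, which regulates actomyosin, was at 144, 114 and 137 TPM against 259 to 899 TPM (median 531) (log2 fold change -2.36 ± 0.15 (SE), adjusted p = 2.33e-09), and TPM2, a tropomyosin, at 708, 639 and 665 TPM against 1054 to 2984 TPM (median 2099). For TPM2 the log2 fold change was -2.02 ± 0.16 (SE), adjusted p = 4.09e-08. All 3 lay below all other libraries, and all were highest in clone 1, at means of 32.2, 894 and 2872 TPM. Actin itself, ACTG1, was at 3114 against 2472 TPM (interval -0.19 to 0.27) and the crosslinker FLNA at 240.1 against 183 TPM (interval -0.18 to 0.29), both shared levels.

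Matrix and adhesion genes were called mostly in the lower direction. Of 22 tested members, 2 were higher and 10 lower in clone 8 (median log2 fold change -0.47, and 4 higher and 10 lower by limma on log2(TPM + 1); on leaving out 1 library, 1 higher without clone 8 replicate 1, 4 higher without clone 1 replicate 3). ITGAV, the integrin alpha V chain that binds vitronectin, was at 48.3, 33.4 and 41.8 TPM against 55.4 to 197 TPM (median 143), and its partner ITGB3 at 1.48, 1.62 and 2.5 TPM against 3.25 to 9.53 TPM (median 5.23). COL4A1, basement membrane collagen, was at 223, 121 and 148 TPM against 271 to 474 TPM (median 358). These 3 were below all other libraries (-1.98 ± 0.15, adjusted p = 1.47e-08 for ITGAV, -1.85 ± 0.22, adjusted p = 4.16e-06 for ITGB3 and -1.49 ± 0.16, adjusted p = 1.2e-06 for COL4A1). The laminin chains LAMB1 and LAMC1 had shared levels at 103 against 131 TPM (interval -0.90 to -0.48) and 83.8 against 106 TPM (interval -0.92 to -0.45), while LAMA1 was called higher at 10.3 against 6.28 TPM (0.48 ± 0.10, adjusted p = 0.00126).

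Fibroblast genes, whose proteins mark the feeder cell type and the source tissue of many reprogrammed lines, were called in both directions about equally. Of 27 tested members, 8 were higher and 9 lower in clone 8 (median log2 fold change 0.085, and 11 higher and 9 lower by limma on log2(TPM + 1); on leaving out 1 library, 5 higher without clone 8 replicate 1 or 3). The sum of COL1A1, COL1A2, COL3A1, THY1, PDGFRB, DCN, LUM and POSTN was 149 to 317 TPM in clone 8, 137 to 282 TPM in clones 1 to 3 and 19821 to 37587 TPM in fibroblasts, with LUM and POSTN below 1 TPM in every clone 8 library. COL1A1, the main fibrillar collagen, was at 122, 46.8 and 59.3 TPM against 95.4 to 236 TPM (median 179.9) with overlap (log2 fold change -1.33 ± 0.21 (SE), adjusted p = 8.71e-05), THY1, a surface marker, at 6.75 against 5.44 TPM (-0.12 ± 0.29, adjusted p = 0.783) and VIM, vimentin, at 283 against 359 TPM (interval -0.87 to -0.46). TAGLN, transgelin, an actin-binding protein, was at 237, 184 and 182 TPM against 395 to 859 TPM (median 458) (log2 fold change -1.78 ± 0.10 (SE), adjusted p = 9.67e-10), and S100A4, a calcium-binding protein of motile cells, was at 0.5, 2.9 and 1.94 TPM against 8.97 to 39.5 TPM (median 18.4). For S100A4 the log2 fold change was -3.79 ± 0.62 (SE), adjusted p = 0.000109. Both were clear of the other clones. FN1, fibronectin, was called higher at 259, 145 and 179.8 TPM against 60.2 to 178 TPM (median 135) (log2 fold change 0.45 ± 0.12 (SE), adjusted p = 0.00624, with adjusted p = 0.187 without clone 8 replicate 1), with overlapping libraries. It was named for its shared level and not as the largest difference in that direction. Of the members called, 6 of the 8 higher and 8 of the 9 lower differed by 2-fold or more. Over all genes tested this held for 955 of 2646 higher and 812 of 2815 lower.

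Chromatin regulators were called mostly in the higher direction. Of the polycomb and trithorax list's 19 tested members, 9 were higher and 0 lower in clone 8 (median log2 fold change 0.29, and 14 higher and 0 lower by limma on log2(TPM + 1); on leaving out 1 library, 4 higher without clone 8 replicate 1, 5 higher without clone 8 replicate 3). CBX2, a subunit of polycomb complex 1, was at 39.8, 31.4 and 33.3 TPM against 7.12 to 14.8 TPM (median 12.3), and KDM6A, an H3K27 demethylase encoded on chromosome X, at 39.3, 34.9 and 41.3 TPM against 9.85 to 16.1 TPM (median 13.7). Both were above all other libraries (1.35 ± 0.11, adjusted p = 3.44e-08 and 1.196 ± 0.12, adjusted p = 3.38e-07). RBBP4 and MTF2, proteins of polycomb complex 2, had shared levels at 476 against 349 TPM (interval -0.046 to 0.29) and 114 against 111 TPM (interval -0.42 to -0.0042). Of the DNA methylation list's 15 tested members, 6 were higher and 3 lower in clone 8 (median log2 fold change 0.23, and 9 higher and 0 lower by limma on log2(TPM + 1); on leaving out 1 library, 0 lower without clone 8 replicate 2), and 10 of the 10 members at 10 TPM or more in both groups had a shared level. TET2, which oxidises methylcytosine, was at 3.28, 3.14 and 3.53 TPM against 0.18 to 2.34 TPM (median 1.55), MBD4, a repair glycosylase, at 48.3, 49.5 and 44.99 TPM against 18.8 to 31.9 TPM (median 23.2), and TRIM28, a corepressor of retroelements, at 384, 304 and 318 TPM against 149 to 229 TPM (median 179). For each of them clone 8 was above all 11 (1.15 ± 0.32, adjusted p = 0.00814, 0.58 ± 0.12, adjusted p = 0.0012 and 0.58 ± 0.11, adjusted p = 0.000396). TET3 and MBD3 were called lower at 8.67 against 9.58 TPM and 93.3 against 114 TPM, without passing limma on log2(TPM + 1) (adjusted p = 0.445 and 0.258). Their edgeR values were -0.48 ± 0.12, adjusted p = 0.00567, with adjusted p = 0.0674 without clone 8 replicate 2, and -0.60 ± 0.18, adjusted p = 0.0117, with adjusted p = 0.0523 without clone 8 replicate 2; without clone 8 replicate 2 no member of the list was called lower, a count of 0.

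Imprinted genes, which are read from the copy of one parent, were often higher in clone 8, and several differed between the other clones. Of 20 tested members, 8 were higher and 1 lower in clone 8 (median log2 fold change 0.36, and 12 higher and 1 lower by limma on log2(TPM + 1); on leaving out 1 library, 5 higher without clone 8 replicate 2, 2 lower without clone 8 replicate 1, clone 1 replicate 4, clone 2 replicate 4 or clone 3 replicate 1, 3 or 4). NNAT, neuronatin, was at 228, 192 and 203 TPM against 23.4 to 53.5 TPM (median 36), above all others and with similar clone means of 33.2, 42.8 and 35.5 TPM. For NNAT the log2 fold change was 1.71 ± 0.15 (SE), adjusted p = 9.66e-08. NDN, necdin, was at 54.6, 46.96 and 50.3 TPM and the call came from clone 3 alone, since the means were 52.8 ± 27.6 TPM in clone 1 (SD, n = 3), 44.2 ± 5.26 TPM in clone 2 (SD, n = 4) and 0.25 ± 0.13 TPM in clone 3 (SD, n = 4). Its fitted value was 2.25 ± 0.24, adjusted p = 1.27e-06, and -0.24 (adjusted p = 0.501) without clone 3. PEG3 had no read in clone 8 and was at 2.43, 0.0075 and 0.005 TPM in clones 1, 2 and 3, so clone 8 resembled clones 2 and 3 in having next to none. GNAS, the stimulatory G protein, and SNRPN had shared levels at 988 against 850.2 TPM (interval -0.28 to 0.046) and 309 against 235 TPM (interval 0.067 to 0.47).

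Germline genes were called lower more often than higher. Of 11 tested members, 1 was higher and 5 lower in clone 8 (median log2 fold change -0.90, and 1 higher and 5 lower by limma on log2(TPM + 1)). RBM46, an RNA-binding protein of meiotic cells, had no read in clone 8. Elsewhere it was at 5.53 ± 2.01 TPM in clone 1 (SD, n = 3), 0.838 ± 0.305 TPM in clone 2 (SD, n = 4) and 11.3 ± 1.31 TPM in clone 3 (SD, n = 4). With the 3-read floor clone 8 was at least 115-fold below the mean of the 3 clones. That bound does not hold for clone 2 alone, which was far below that mean. NPM2, a histone chaperone of the egg, was at 20.3, 22.2 and 21.3 TPM against 70.7 to 149 TPM (median 103) (log2 fold change -2.63 ± 0.20 (SE), adjusted p = 1.88e-08), below all. KIT, the stem cell factor receptor, was the only member called higher, at 50.02, 47.7 and 48.02 TPM against 3.69 to 17.9 TPM (median 7.97). For KIT the log2 fold change was 2.26 ± 0.13 (SE), adjusted p = 1.04e-09. DND1, an RNA-binding partner of NANOS, was at 10.8, 10.5 and 12.4 TPM in clone 8 and varied among the other clones far more, with means of 30.02 ± 12.3 TPM in clone 1 (SD, n = 3), 0.84 ± 0.213 TPM in clone 2 (SD, n = 4) and 25.4 ± 2.41 TPM in clone 3 (SD, n = 4); its averaged difference of 0.049 (interval -0.41 to 0.51) met the definition of a shared level although no other clone was at that level, and became -1.69 without clone 2.

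Cell-cycle genes were called higher more often than lower, though CCND1, given above, was lower, as was CDKN1A, the kinase inhibitor p21, at 31.1 against 44.9 TPM (-0.83 ± 0.19, adjusted p = 0.00218, but by limma on log2(TPM + 1) adjusted p = 0.0695). Of 28 tested members, 9 were higher and 3 lower in clone 8 (median log2 fold change 0.13, and 20 higher and 2 lower by limma on log2(TPM + 1); on leaving out 1 library, 5 higher without clone 8 replicate 1 or 3), and 24 of the 27 members at 10 TPM or more in both groups had a shared level. CDC20, an activator of the anaphase-promoting complex, was at 186, 192 and 179.7 TPM against 36.7 to 109.6 TPM (median 66.99). For CDC20 the log2 fold change was 1.16 ± 0.11 (SE), adjusted p = 2.97e-07. BUB1, a spindle checkpoint kinase, was at 97.6, 101 and 101 TPM against 40.2 to 56.3 TPM (median 47.3) and MCM4, part of the replicative helicase, at 172, 171 and 173 TPM against 66.4 to 104 TPM (median 88.2). In all 3 clone 8 was above every other library (0.75 ± 0.081, adjusted p = 1.22e-06 for BUB1 and 0.68 ± 0.081, adjusted p = 3.87e-06 for MCM4). MKI67, the proliferation antigen, was at 76.3, 58.6 and 69.99 TPM against 33.4 to 50.5 TPM (median 43.1) (log2 fold change 0.32 ± 0.11 (SE), adjusted p = 0.0277, with adjusted p = 0.171 without clone 8 replicate 1 and adjusted p = 0.123 without clone 8 replicate 3), also above. PCNA, the replication clamp, and BIRC5, survivin, were at 404 against 314 TPM (interval -0.19 to 0.41) and 327 against 339 TPM (interval -0.40 to 0.17). For PCNA this shared level comes from averaging, since clone 8 was at 386 to 424 TPM. Clone 1 was at 153 to 296 TPM, clone 2 at 246 to 296 TPM and clone 3 at 332 to 502 TPM.

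Targets of p53 were more often lower on scaled counts. On log2(TPM + 1) 5 of 19 were higher and 4 lower, against 40.4% and 10% of all genes. Of 19 tested members, 3 were higher and 7 lower in clone 8 (median log2 fold change -0.28, and 5 higher and 4 lower by limma on log2(TPM + 1)). FAS, a death receptor, was at 8.56, 8.48 and 6.42 TPM against 9.7 to 20.7 TPM (median 16.1) (log2 fold change -1.40 ± 0.20 (SE), adjusted p = 2.9e-05) and ZMAT3, an RNA-binding target, at 14.7, 14.5 and 14.1 TPM against 20.2 to 31.04 TPM (median 22.9) (log2 fold change -1.08 ± 0.12 (SE), adjusted p = 1.67e-06), both below all others. CDKN1A (p21), the cell-cycle brake, was at 32.3, 33.5 and 27.4 TPM against 22.4 to 68.6 TPM (median 45.5), inside the range. For CDKN1A the log2 fold change was -0.83 ± 0.19 (SE), adjusted p = 0.00218, but by limma on log2(TPM + 1) adjusted p = 0.0695. RRM2B, a p53-induced ribonucleotide reductase subunit, was higher at 36.97, 43.7 and 43.7 TPM against 11.8 to 28.5 TPM (median 18.4). For RRM2B the log2 fold change was 0.80 ± 0.14 (SE), adjusted p = 0.000204.

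Of the stress and immediate early list's 19 tested members, 5 were higher and 8 lower in clone 8 (median log2 fold change -0.043, and 7 higher and 6 lower by limma on log2(TPM + 1)). FOS was at 41.7, 34.9 and 34.6 TPM against 1.14 to 29.3 TPM (median 2.25), where clone 2 averaged 25.3 TPM and clones 1 and 3 3.54 and 1.91 TPM. For FOS the log2 fold change was 2.41 ± 0.32 (SE), adjusted p = 1.45e-05. Like EGR1, FOS was thus high in clone 8 and in clone 2, and against clone 2 alone its difference was 0.33 ± 0.40 (adjusted p = 0.619). DDIT4, an mTOR inhibitor induced by stress, was at 57.8, 72.8 and 60.7 TPM against 61.2 to 167 TPM (median 124) (log2 fold change -1.28 ± 0.20 (SE), adjusted p = 7.31e-05) and TXNIP, a glucose-induced brake on glucose uptake, at 21.1, 38.9 and 29.9 TPM against 30.5 to 75.9 TPM (median 52.6). For TXNIP the log2 fold change was -1.200 ± 0.20 (SE), adjusted p = 0.000113. Both overlapped the other clones at their low end. HSPA5, the ER chaperone BiP, was at 981 against 962 TPM (interval -0.48 to -0.15), a shared level whose sign differed between scaled counts (-0.31) and log2(TPM + 1) (0.029).

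Genes of the amino acid response, run by ATF4, were called mainly in the higher direction. Of 20 tested members, 8 were higher and 5 lower in clone 8 (median log2 fold change 0.41, and 12 higher and 2 lower by limma on log2(TPM + 1)). ASNS, asparagine synthetase, was at 298, 281 and 264 TPM against 91.5 to 183 TPM (median 109) (log2 fold change 0.90 ± 0.091 (SE), adjusted p = 6.43e-07) and PSAT1, of serine synthesis, at 33.8, 32.4 and 30.3 TPM against 9.35 to 24.3 TPM (median 14.8). For PSAT1 the log2 fold change was 0.81 ± 0.13 (SE), adjusted p = 6.66e-05. Neither overlapped. ATF4 itself was at 371 against 255 TPM (interval 0.19 to 0.59). CEBPB, a stress-induced factor, had no read in clone 8 and 0.27 to 2.58 TPM (median 1.51) elsewhere, at least 7.8-fold lower with the 3-read floor. Fibroblast libraries differed for it between their 2 pairs, at 86.6 TPM in libraries 1 and 2 and 2.44 TPM in libraries 3 and 4, which share clone 8's implied gene lengths. The part of the library set in the CEBPB result was not tested.

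Heat shock chaperones were mostly lower on scaled counts. On log2(TPM + 1) 4 of 13 were higher and 4 lower, against 40.4% and 10% of all genes. Of 13 tested members, 3 were higher and 9 lower in clone 8 (median log2 fold change -0.39, and 4 higher and 4 lower by limma on log2(TPM + 1)), and 9 of the 12 members at 10 TPM or more in both groups had a shared level. HSP90AB1, the constitutive HSP90, was at 6509, 6613 and 6935 TPM against 7174 to 11343 TPM (median 9866) (log2 fold change -0.86 ± 0.11 (SE), adjusted p = 5.62e-06), and the inducible HSP70.2 at 266, 221 and 225 TPM against 185 to 511 TPM (median 379). For HSP70.2 the log2 fold change was -1.03 ± 0.18 (SE), adjusted p = 0.000208. HSP90AB1 was below all other libraries and HSP70.2 was not. BAG3, a co-chaperone, and HSPH1 (HSP110) were above all others, at 21.1 against 10.5 TPM (0.68 ± 0.13, adjusted p = 0.000431) and 195 against 112 TPM (0.46 ± 0.081, adjusted p = 0.000212). HSP70.2 stands for near-identical HSP70 copies that may share reads, so its value is uncertain.

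On log2(TPM + 1) more glycolytic genes were higher than lower, but so were all genes (40.4% higher and 10% lower). On scaled counts 11 of the 22 members tested were called lower. Another 3 were higher (median log2 fold change -0.38, and 9 higher and 5 lower by limma on log2(TPM + 1)), and 17 of the 19 members at 10 TPM or more in both groups had a shared level. SLC2A3, the high-affinity glucose transporter GLUT3, was at 929, 934 and 915 TPM against 1257 to 2321 TPM (median 1729) (log2 fold change -1.31 ± 0.12 (SE), adjusted p = 1.29e-07) and SLC16A1, a lactate carrier, at 249, 246 and 255 TPM against 381 to 679 TPM (median 508). For SLC16A1 the log2 fold change was -1.27 ± 0.089 (SE), adjusted p = 7.91e-09. Both were below all 11, as was HK1, hexokinase 1, at 344 against 470.3 TPM (-0.79 ± 0.10, adjusted p = 5.86e-06), while HK2 was above all at 15.8 against 7.47 TPM (0.80 ± 0.15, adjusted p = 0.000375). PKM and LDHB, late enzymes of the pathway, had shared levels at 1546 against 1671 TPM (interval -0.51 to -0.18) and 3369.7 against 4283 TPM (interval -0.92 to -0.43). Of the hypoxia list's 16 tested members, 1 was higher and 5 lower in clone 8 (median log2 fold change -0.21, and 3 higher and 1 lower by limma on log2(TPM + 1); on leaving out 1 library, 2 lower without clone 8 replicate 3, 3 lower without clone 8 replicate 1 or 2). LOX, a collagen crosslinking enzyme, was the higher one at 8.18, 9.84 and 6.41 TPM against 0.14 to 2.78 TPM (median 1.63). For LOX the log2 fold change was 1.92 ± 0.48 (SE), adjusted p = 0.00422.

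Nuclear genes of oxidative phosphorylation had shared levels about as often as all genes at 10 TPM or more in both groups (81.7%). Of 19 tested members, 1 was higher and 7 lower in clone 8 (median log2 fold change -0.21, and 6 higher and 3 lower by limma on log2(TPM + 1); on leaving out 1 library, 0 higher without clone 8 replicate 1, 2 or 3, 2 higher without clone 2 replicate 3 or clone 3 replicate 4), and 17 of the 19 members at 10 TPM or more in both groups had a shared level. NDUFA1, a complex I subunit, was the lowest at 83.1, 111 and 94.8 TPM against 119 to 195 TPM (median 145). For NDUFA1 the log2 fold change was -0.94 ± 0.16 (SE), adjusted p = 0.000172. Of the cholesterol and lipid synthesis list's 21 tested members, 3 were higher and 9 lower in clone 8 (median log2 fold change -0.30, and 5 higher and 3 lower by limma on log2(TPM + 1)). The more common direction thus differed between the scales, but limma called 40.4% of all genes higher and 10% lower. SCD, the fatty acid desaturase, was at 131, 108 and 106 TPM against 133 to 248 TPM (median 157) (log2 fold change -0.87 ± 0.091 (SE), adjusted p = 8.42e-07), below all others, whereas FASN, fatty acid synthase, was above all at 103, 53.5 and 62.4 TPM against 26.3 to 44.4 TPM (median 29.9). For FASN the log2 fold change was 0.83 ± 0.15 (SE), adjusted p = 0.000208. Ribosomal protein genes were close to the background, with 6 higher and 6 lower of 30 and 28 at a shared level, though pseudogene copies may share their reads. Leaving out 1 library moved the first count to 3 higher without clone 8 replicate 2. On the TPM scale 17 of 30 were higher and 2 lower, against 40.4% and 10% of all genes. RPLP1 was highest at 2872 against 1534 TPM (0.61 ± 0.076, adjusted p = 5.85e-06) and RPL30 lowest at 1118 against 1863 TPM (-1.03 ± 0.15, adjusted p = 3.16e-05).

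Interferon and antigen presentation genes had no member called higher on scaled counts. Of 20 tested members, 0 were higher and 6 lower in clone 8 (median log2 fold change -0.32, and 3 higher and 3 lower by limma on log2(TPM + 1); on leaving out 1 library, 1 higher without clone 3 replicate 1, 2 higher without clone 1 replicate 4, 3 lower without clone 8 replicate 3). The pig class I genes SLA-1 and SLA-3 were at 16.3, 13.7 and 28.8 TPM against 29.02 to 53.3 TPM (median 47.4) and at 14.3, 16.3 and 15.2 TPM against 21.8 to 56.3 TPM (median 34.2). Both were below all others (-1.497 ± 0.21, adjusted p = 1.84e-05 and -1.49 ± 0.17, adjusted p = 2.48e-06), but these genes are near-identical and may trade reads. Their light chain B2M was at 199 against 231 TPM (interval -0.82 to -0.18), a shared level that comes from averaging, since its means were 287 ± 32.1 TPM in clone 1 (SD, n = 3), 297 ± 60.4 TPM in clone 2 (SD, n = 4) and 109 ± 36.8 TPM in clone 3 (SD, n = 4). In the small metal-handling list, of 7 tested members, 2 were higher and 1 lower in clone 8 (median log2 fold change -0.065, and 3 higher and 1 lower by limma on log2(TPM + 1); on leaving out 1 library, 1 higher without clone 8 replicate 1, 2 or 3, clone 1 replicate 3, clone 2 replicate 1, 2 or 3 or clone 3 replicate 4). TFRC, the transferrin receptor, was at 95.2, 125 and 119 TPM against 46.6 to 77.1 TPM (median 56.7) (log2 fold change 0.57 ± 0.10 (SE), adjusted p = 0.000161) and SLC30A1, a zinc exporter, at 10.8, 6.69 and 8.7 TPM against 12.6 to 43.7 TPM (median 19.02). For SLC30A1 the log2 fold change was -1.62 ± 0.24 (SE), adjusted p = 3.51e-05. Clone 8 was above all for TFRC and below all for SLC30A1.

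Large differences were asked to pass the test with at least 4-fold in both scaled counts and TPM, 10 TPM or more in the higher group and no overlap between the 3 clone 8 and the 11 other libraries. There were 59 (0.407% of genes tested), 35 higher (0.242%) and 24 lower (0.166%) in clone 8, and since each criterion looks at the same values they are described without a further test. Coordinates are RefSeq's on Sscrofa11.1. LHX5 (chromosome 14, 38446781 to 38456460), a forebrain homeobox factor, was at 15.4, 22.4 and 20.7 TPM in clone 8 and 0 to 1.69 TPM (median 0.27) elsewhere. It had no read in clone 1. For LHX5 the log2 fold change was 7.38 ± 0.38 (SE), adjusted p = 1.21e-09. That average takes in clone 1 at no read, with no floor, so its size is uncertain. Against clones 2 and 3 singly LHX5 was at 3.95 ± 0.41 and 5.87 ± 0.45 (SE). GPC6, a surface heparan sulfate proteoglycan, was at 19.1, 15.6 and 17.1 TPM against 0 to 4.66 TPM (median 1.75), with clone 2 near 0 at 0.025 TPM. For GPC6 the log2 fold change was 4.60 ± 0.22 (SE), adjusted p = 2.98e-10. BMPER, a secreted BMP modulator, was at 11.8, 14.9 and 15.7 TPM against 0.08 to 2.32 TPM (median 0.75) (log2 fold change 3.55 ± 0.44 (SE), adjusted p = 6.35e-06), and TP73, a relative of p53, at 15.4, 12.4 and 14.5 TPM against 0.7 to 2.15 TPM (median 1.58). For TP73 the log2 fold change was 2.91 ± 0.26 (SE), adjusted p = 1.36e-07. For TP73 the 3 other clones agreed closely, at 1.43, 1.66 and 1.48 TPM. HES1, the Notch effector and relative of HES5 above, was at 39.4, 30.3 and 28.2 TPM against 2.91 to 7.72 TPM (median 6.02). For HES1 the log2 fold change was 2.25 ± 0.32 (SE), adjusted p = 2.39e-05.

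VMO1, a secreted protein, was at 86.2, 83.4 and 84.3 TPM against 2.46 to 15.1 TPM (median 10.5) (log2 fold change 3.14 ± 0.19 (SE), adjusted p = 1.86e-09), and AMY2, a pancreatic amylase, at 262, 260.2 and 256 TPM against 3.35 to 100.5 TPM (median 14.5). AMY2 split the other clones, with 98.8 ± 2.37 TPM in clone 1 (SD, n = 3), 20.9 ± 8.7 TPM in clone 2 (SD, n = 4) and 4.42 ± 0.897 TPM in clone 3 (SD, n = 4) (log2 fold change 3.31 ± 0.17 (SE), adjusted p = 3.53e-10), and reads of near-identical amylase copies may be shared. SLC2A2, the glucose transporter GLUT2, was at 178, 155 and 156 TPM against 5.94 to 65.05 TPM (median 17.2). For SLC2A2 the log2 fold change was 2.57 ± 0.39 (SE), adjusted p = 4.49e-05. The remaining genes named by their ratio of TPM + 0.1 were P3H2, a collagen prolyl hydroxylase, at 30.8 against 3.99 TPM, HIGD1B at 14.3 against 1.123 TPM (edgeR adjusted p = 0.009, with adjusted p = 0.05 without clone 8 replicate 3), LMO3, a LIM-only cofactor, at 10.8 against 1.45 TPM, and LRRC6, a protein of cilia assembly, at 15.7 against 2.26 TPM. LRRC6 split the other clones, with means of 5.58, 1.18 and 0.0175 TPM in clones 1, 2 and 3. Against clone 1 alone its log2 fold change was 0.99 ± 0.57 (adjusted p = 0.18). One locus without a name, LOC100736865 (chromosome 2, 59558907 to 59564301), was at 18.02, 10.8 and 10.6 TPM and had no read in any of the 11 other libraries, at least 482-fold higher with the 3-read floor. LOC100736865 was the only gene under 0.5 TPM in all 11 and at 10 TPM or more in every clone 8 library, and in differentiated clone 8 it ranged from 0 to 10.1 TPM.

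In the lower direction PPFIBP2 (chromosome 9, 1984717 to 2141428), a liprin-binding scaffold protein, stood out. It was at 0.14, 0.18 and 0 TPM in clone 8, on 7 reads in all, and at 13.8 to 26 TPM (median 19.2) elsewhere. For PPFIBP2 the log2 fold change was -7.08 ± 0.38 (SE), adjusted p = 4.04e-10. It was the only gene below 0.5 TPM in all clone 8 libraries and at 10 TPM or more in all 11 others, and it was among the 8 genes that also passed with clones as units (adjusted p = 0.00348). Across the 18 differentiated clone 8 libraries it ranged from 0.15 to 1.3 TPM, and in fibroblasts from 0.28 to 0.84 TPM. SPO11 (chromosome 17, 57730676 to 57745875), the enzyme that starts meiotic recombination, was at 1.04, 0.64 and 1.68 TPM against 17.7 to 43.3 TPM (median 27.6) (log2 fold change -5.13 ± 0.40 (SE), adjusted p = 3.05e-08), and passed with clones as units too (adjusted p = 0.00819). SFN, the epithelial 14-3-3 protein sigma, was at 37.3, 37.6 and 34.3 TPM against 159 to 673 TPM (median 214). For SFN the log2 fold change was -3.23 ± 0.21 (SE), adjusted p = 4.05e-09. CDX4, a caudal homeobox factor of posterior identity, was at 1.48, 1.95 and 1.82 TPM against 8.62 to 21.7 TPM (median 10.8). For CDX4 the log2 fold change was -3.22 ± 0.17 (SE), adjusted p = 3.53e-10. ADAMTS1, a secreted protease, was at 1.8 against 14.4 TPM (-3.24 ± 0.20, adjusted p = 2.42e-09), COL5A3, a minor fibrillar collagen, at 1.38 against 10.6 TPM (-3.25 ± 0.28, adjusted p = 9.06e-08), EPS8L1, an actin regulator, at 1.89 against 14.02 TPM (-2.99 ± 0.26, adjusted p = 1.14e-07), CFAP44, a cilia protein, at 1.96 against 11.97 TPM (-2.89 ± 0.19, adjusted p = 3.96e-09) and LIPG, endothelial lipase, at 6.84 against 35.7 TPM (-2.44 ± 0.15, adjusted p = 2.04e-09). FABP7, S100A4 and ANKRD1, described above, complete the 12 named by their ratio of TPM + 0.1.

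**Figure D4:**
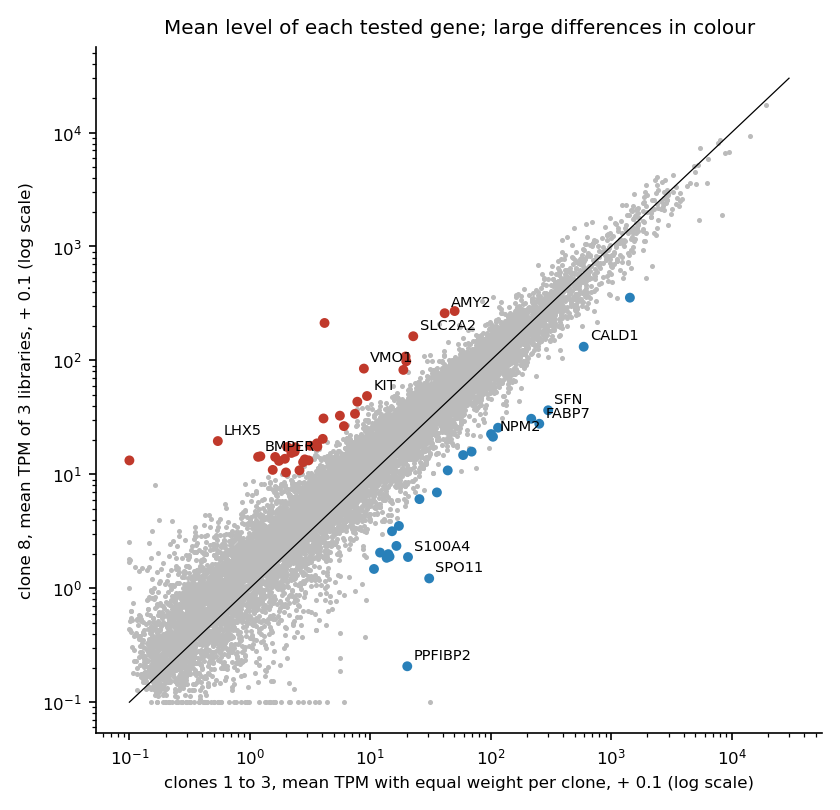
Mean TPM + 0.1 of each tested gene in clone 8 (vertical) and in clones 1 to 3 with equal weight per clone (horizontal), both on log scales; the line marks equal levels. Of the 59 large differences, 35 are higher (red) and 24 lower (blue) in clone 8, and PPFIBP2 lies furthest below the line among them.

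Fibroblast libraries give a partial look at the library set, since libraries 3 and 4 share the implied gene lengths of clone 8 and libraries 1 and 2 share only the greater depth of clones 1 to 3. Between these 2 pairs 12% of genes at 10 TPM or more were at least 2-fold higher in libraries 3 and 4 and 8.97% lower. Of the 59 large differences 38 reached 1 TPM in a fibroblast pair, and of these 7 moved at least 2-fold in the same direction, 6 in the opposite one and 25 by less. SLC2A2 moved most, from 0.19 to 498 TPM, and in a fit with fibroblasts and a term for depth its log2 fold change turned to -8.59 (adjusted p = 1.9e-05). CBX3, a heterochromatin protein among the large differences at 271 against 50.1 TPM, moved from 25.98 to 107 TPM and had a log2 fold change of 0.25 in that fit (adjusted p = 0.693) against 2.00 ± 0.19; it was named after these values were seen. BMPER, at 4.71 and 5.68 TPM, and P3H2, at 15.2 and 13.3 TPM, differed by less than 2-fold between the fibroblast pairs. ADAMTS1 (37.7 and 43.3 TPM), LIPG (195 and 175 TPM) and ANKRD1 (255 and 288 TPM) also stayed within 2-fold. AMY2, described above, was among the 7 that moved in the same direction. It was at 0.715 TPM in fibroblast libraries 1 and 2 and 3.895 TPM in libraries 3 and 4. In the fit with the depth term its log2 fold change was 1.08 (adjusted p = 0.177) against 3.31 ± 0.17.

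With clones as units the genes that passed were PPFIBP2, SPO11, CFAP44 and CBX3, all described here, and 4 others, named after the test. EXO5, a DNA exonuclease, was at 7.14, 9.19 and 7.62 TPM against 0 to 0.3 TPM (median 0.03). For EXO5 the log2 fold change was 6.89 ± 0.91 (SE), adjusted p = 1.14e-05, and 0.0476 with clones as units. MUC19, a gel-forming mucin, was at 2.84, 1.54 and 2.75 TPM against 0 to 0.23 TPM (median 0.02). For MUC19 the log2 fold change was 5.57 ± 0.62 (SE), adjusted p = 1.67e-06, and 0.0456. LOC100525692, a locus without a name, was at 178, 247 and 214 TPM against 0 to 11.5 TPM (median 2.8). For LOC100525692 the log2 fold change was 5.62 ± 0.34 (SE), adjusted p = 1.39e-09, and 0.0456. These 3 were above every other library, though EXO5 and MUC19 stayed under the 10 TPM asked of a large difference. TRIM4, a ubiquitin ligase family member, was below every other library at 0.6, 0.25 and 0.42 TPM against 1.72 to 4.68 TPM (median 4.21). For TRIM4 the log2 fold change was -3.42 ± 0.33 (SE), adjusted p = 2.97e-07, and 0.0476. In the fibroblast pairs LOC100525692 differed as well, at 12.3 TPM in libraries 1 and 2 and 145 TPM in libraries 3 and 4. EXO5 was at 2.02 and 1.46 TPM there, MUC19 at 0.075 and 0.145 TPM and TRIM4 at 6.91 and 6.28 TPM.

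A stretch of chromosome X was higher in clone 8 as a block. Of 243 windows of 10 Mb that hold at least 10 tested genes, X 10 to 20 Mb (median log2 fold change 0.87 over 50 genes) and X 20 to 30 Mb (0.84 over 12 genes) had the highest medians, and the other 241 lay between -0.38 and 0.52. The windows were picked after their values were seen, so the stretch is described with no test. Its 62 tested genes run from 10218108 to 29650728 on chromosome X of Sscrofa11.1. Of these 37 (59.7%) were called higher and 2 lower, with a median of 0.86 and quartiles of 0.35 and 1.118. The other 469 X genes had 82 higher and 102 lower and a median of 0.058. Against clones 1, 2 and 3 singly the median of the stretch was 0.92, 0.71 and 0.74. On log2(TPM + 1) it was 0.90, and in the fit with fibroblasts and a depth term it stood 0.44 above the median of all genes, against 0.81 otherwise.

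Genes of the stretch, named here after their values were seen, have unrelated roles. AP1S2, a clathrin adaptor subunit, was at 1166, 1255 and 1211 TPM against 206 to 740.4 TPM (median 443). For AP1S2 the log2 fold change was 1.23 ± 0.14 (SE), adjusted p = 2.73e-06. RBBP7, a histone-binding partner of RBBP4, was at 388, 455 and 424 TPM against 143 to 260.3 TPM (median 196). For RBBP7 the log2 fold change was 0.86 ± 0.11 (SE), adjusted p = 6.65e-06. PDHA1, of pyruvate dehydrogenase, was at 551, 509 and 529.6 TPM against 247 to 344 TPM (median 270.1) and EIF2S3, of translation initiation, at 596, 591 and 574 TPM against 279 to 346 TPM (median 314). In all of these the clone 8 libraries were above the other 11 (0.60 ± 0.079, adjusted p = 1.03e-05 for PDHA1 and 0.56 ± 0.086, adjusted p = 5.69e-05 for EIF2S3). ZFX, a zinc finger factor of self-renewal, was at 39.2, 39.8 and 46.3 TPM against 10.7 to 27.3 TPM (median 19.5). For ZFX the log2 fold change was 0.86 ± 0.17 (SE), adjusted p = 0.000586. The exceptions were MOSPD2 and MBTPS2, called lower at 10.3 against 13.95 TPM and 16.2 against 19.4 TPM (-0.74 ± 0.18, adjusted p = 0.00327 and -0.48 ± 0.12, adjusted p = 0.00441, but by limma on log2(TPM + 1) adjusted p = 0.153). Beyond the stretch lie USP9X, a deubiquitinase, at 132, 107 and 124 TPM against 35.7 to 48.8 TPM (median 40.6) (log2 fold change 1.24 ± 0.075 (SE), adjusted p = 1.5e-09), and, further along, RPS4X and PGK1, with shared levels at 1999 against 1999 TPM (interval -0.51 to -0.16 on scaled counts) and 828 against 913 TPM (interval -0.66 to -0.22).

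Per library, the median log2(TPM + 1) of the 62 genes relative to clones 1 to 3, less that of all genes, was 0.56 to 0.66 in undifferentiated clone 8 and -0.089 to 0.14 in the 11 other libraries. It was 0.33 to 0.44 in clone 8 mesendoderm, 0.38 to 0.55 in clone 8 presomitic mesoderm and 0.016 to 0.55 over all 18 differentiated libraries. Clone 8 somite (0.016 to 0.19), endothelial (0.033 to 0.17) and neural-labelled libraries (0.087 to 0.28) overlapped clones 1 to 3. Those labelled cardiomyocyte (0.24 to 0.35) did not. Fibroblasts, which include 2 libraries with the implied gene lengths of clone 8, were at -0.31 to -0.0014. Whole autosomes had medians from -0.16 (chromosome 17) to 0.12 (chromosome 6), and chromosome 17 was low against clone 3 only, at -0.56, with 0.0062 against clone 1 and -0.039 against clone 2. Its 434 genes include DNMT3B, SALL4, TFAP2C and SPO11. The values of these and of all other chromosome 17 genes against clone 3 are to be read beside that shift.

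**Figure D5:**
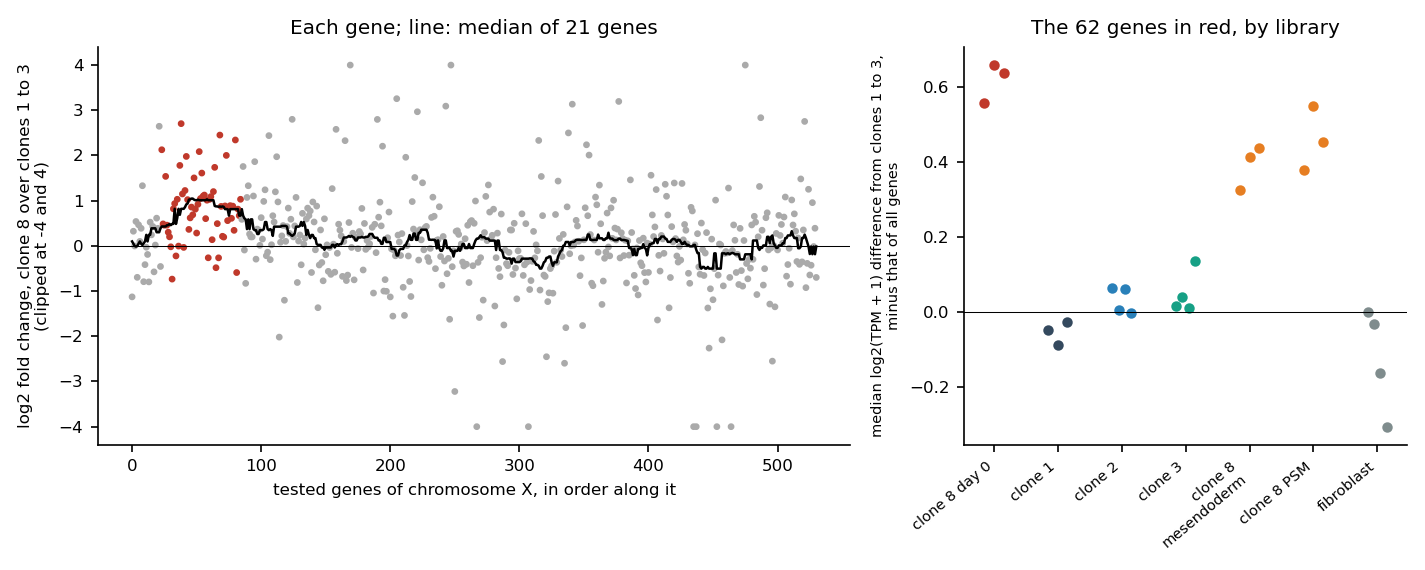
Left, log2 fold change of each tested chromosome X gene in order along the chromosome, with a running median over 21 genes (line) and the 62 genes of the 10 to 30 Mb stretch in red. Right, their median by library, at 0.56 to 0.66 in clone 8 day 0 and -0.089 to 0.14 in clones 1 to 3 (each point is 1 library). Of the differentiated clone 8 groups only mesendoderm and presomitic mesoderm (PSM) are drawn, and other groups were lower.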

How the data were processed

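The authors deposited tables of estimated counts (RSEM expected counts per gene, not whole numbers) and of TPM. Per the submitters' processing notes, Bowtie 1.2.3, RSEM 1.2.3 and Sscrofa11.1 were used; strand and annotation are not given in the sources used here. Of 20683 genes, 66 on chromosome Y were left out. Counts of the 14 libraries were rounded, scaled by TMM and filtered (filterByExpr, minimum count 10), and 14490 genes were tested with edgeR 4.0.16 (quasi-likelihood, 1 coefficient per clone, Benjamini-Hochberg) in R 4.3.3. TPM were tested with limma 3.58.1 on log2(TPM + 1), and DESeq2 1.42.0 was an alternative. All p-values printed are edgeR's unless limma is named. SE is the size of the log2 fold change divided by the square root of F. On simulated counts for this comparison (14490 genes, 50 changed per fold size), 26% of 1.5-fold, 64% of 2-fold, 74% of 4-fold and 84% of 8-fold changes were recovered, with 4 false calls. Apart from the set changes, all clones had the same mean per gene there, with the library spread of the fit. Differences between clones, in gene length or in library set were not simulated, so these false calls do not cover them. No 2 libraries agreed within sampling noise.

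Groups came from the labels. The members and the 34 gene lists were chosen with earlier results of these data known. Genes named are marker genes, up to 3 called members of each list in the commoner direction and 2 in the other, up to 2 at a shared level, and, among genes with a symbol, the 12 large differences each way with the most extreme log2 ratio of TPM + 0.1. Not all genes that meet this rule are described, 2 are not reported here, and genes named otherwise are said to be. Intervals are 95%. A floor of 3 counts over a group stands for no read, which leaves every list median as printed; intervals and floors cover counting error and library spread only.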

Additional observations from a re-analysis of the deposited data

Results flagged for a closer look

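Among the 4 libraries of clone 2 and the 4 of clone 3, the TPM of a named gene was set apart in 26 of 348 cases (7.47%) because the highest or lowest library lay far from the other 3 (Dixon's gap over the range above 0.829). Chance gives about 1 in 20. Groups of 3 were not examined. Clone 3 replicate 4 was the most frequent. Values are given as that library against the range of the other 3. In clone 2 replicate 2 this held for ADAMTS1 (6.46 against 8.69 to 8.79 TPM) and LGR5 (2.24 against 4.64 to 4.76 TPM). In clone 2 replicate 3 this held for ASNS (183 against 133 to 142 TPM), FOXA1 (4.66 against 3.36 to 3.41 TPM) and PSAT1 (9.35 against 11.2 to 11.2 TPM). In clone 2 replicate 4 this held for DUSP4 (69.93 against 83.8 to 85.6 TPM) and RPL30 (2277 against 1573 to 1654 TPM). In clone 3 replicate 1 this held for ADAMTS1 (10.8 against 14.96 to 15.8 TPM), BIRC5 (222 against 374 to 403 TPM), ID3 (589 against 302 to 336 TPM), LEFTY2 (50.3 against 19.4 to 20.7 TPM), LGR5 (0.46 against 1.21 to 1.24 TPM) and PCNA (332 against 492 to 502 TPM). In clone 3 replicate 4 this held for ASNS (139 against 103 to 108 TPM), EIF2S3 (310.1 against 340.1 to 346 TPM), FOS (1.15 against 2.09 to 2.25 TPM), NPM2 (80.1 against 103 to 107 TPM), P3H2 (1.64 against 2.79 to 2.96 TPM), PPFIBP2 (18.4 against 24.04 to 24.6 TPM), PSAT1 (24.3 against 16.4 to 17.7 TPM), RBBP4 (436 against 324 to 342 TPM), RRM2B (23.9 against 15.9 to 16.3 TPM), SCD (248 against 185 to 193 TPM), USP9X (46.7 against 40.03 to 40.6 TPM), ZFX (20.6 against 15.4 to 15.6 TPM) and ZMAT3 (29.6 against 20.2 to 21.5 TPM). Replicates 2 and 3 of clone 3 were the closest of that clone, with a chi-square per degree of freedom of 4.998 against 44.3 to 67.03 for its other pairs.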

How the results depend on the processing

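The counts of genes past the threshold (2646 higher and 2815 lower) were within 1.5 times of this with DESeq2, RLE scaling, no filter on low counts, thinning to 1 depth and each clone left out. A test against a 2-fold change gave 218 higher and 227 lower, all 36 libraries in the fit 1388 higher and 1303 lower, counts summed per clone 4 higher and 4 lower, limma on log2(TPM + 1) 5860 higher and 1456 lower and limma on log2(TPM + 0.1) 5643 higher and 1444 lower. Equal weight per library gave 1397 higher and 2094 lower. Leaving out 1 library at a time gave 1770 to 3219 higher and 2193 to 3060 lower. Large differences numbered 30 to 37 higher and 22 to 30 lower over these, and 22 higher with equal weight per library. Counts summed per clone gave 2 and 3, fibroblasts with a depth term (added after seeing the data) 21 and 14, a minimum of 5 TPM 65 and 39, and a minimum of 20 TPM 15 higher. Shared levels numbered 3420 with counts summed per clone, 2439 with fibroblasts and a depth term and 3073 within 1.5-fold. The cause of these shifts was not tested, except that summing leaves fewer samples and that a stricter limit admits fewer genes.

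Of 174 named genes 162 passed the test. Calls ended for 154 with counts summed per clone, 100 against a 2-fold change, 57 with all 36 libraries, 28 with equal weight per library and 23 on leaving out some single library; no named gene changed sign there. Signs turned on log2(TPM + 1) for DNMT3B (0.0817), DUSP4 (0.0702), GNAS (0.25), HSPA5 (0.0286) and RPS4X (0.0034), and on log2(TPM + 0.1) for DNMT3B (0.0818), DUSP4 (0.071), GNAS (0.25), HSPA5 (0.0286) and RPS4X (0.0034). Without clone 3 DNMT3B stood at 0.096 and NDN at -0.24, and without clone 2 DND1 at -1.69. Of 110 named genes at 1 TPM or more in both fibroblast pairs, 22 lost the call with fibroblasts and a depth term and 9 turned sign, CDKN1A (0.55), DUSP4 (0.0389), FZD7 (0.52), GNAS (0.47), KRT18 (0.23), KRT8 (0.18), PKM (0.28), RPS4X (0.12) and THY1 (1.42). SLC2A2, under that level in libraries 1 and 2, turned to -8.59. The batch term planned from implied gene lengths was not run, because no fibroblast library shares the value of clones 1 to 3.

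Replicate numbers did not pair the samples: the 18 same-numbered pairs had correlations of deviations from -0.11 to 0.0758. With the replicate number as a block, 2501 higher and 2669 lower genes passed, 4881 of these 5170 also without it, and 8 named genes lost the call. At 8152284 to 8604970 counts per clone 8 library, a gene at 0 in all 3 could still be at 0.103 CPM.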

Other observations

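Next to the chromosome X stretch, the 27 tested genes at 30 to 40 Mb had 9 called higher and 3 lower, with a median log2 fold change of 0.37. SHISA2, a secretory pathway inhibitor of WNT and FGF receptors, was chosen after its values were seen: it was at 117, 108 and 99.2 TPM in clone 8 and at 56.9 ± 3.24 TPM in clone 1 (SD, n = 3), 0.46 ± 0.482 TPM in clone 2 (SD, n = 4) and 1.3 ± 0.359 TPM in clone 3 (SD, n = 4). Clone 8 was nearest to clone 1 for this gene and far above the other 2 (log2 fold change 4.76 ± 0.29 (SE), adjusted p = 1.5e-09, and 0.653 with clones as units). GRHPR, an enzyme of glyoxylate metabolism, chosen in the same way, was at 88.9, 80.1 and 78.3 TPM in clone 8 and at 25.7 ± 6.3 TPM in clone 1 (SD, n = 3), 29.4 ± 2.1 TPM in clone 2 (SD, n = 4) and 1.13 ± 0.657 TPM in clone 3 (SD, n = 4) (log2 fold change 2.78 ± 0.21 (SE), adjusted p = 1.67e-08, and 0.475).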
